A study of Mus musculus with 6 samples.

Results

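The genes described here are 39 genes of DNA replication and S phase, chosen by name from 21368 genes named on the array and grouped by role. They comprise 10 genes of origin licensing, 4 of helicase activation, 15 of the replication fork, 5 of nucleotide supply and 5 S phase regulators. They were measured by 44 of the 55681 probes of a 1-colour Agilent array. The cells were adult hippocampal precursor cells, dividing cells of the dentate gyrus from which new neurons arise, taken from male C57BL6/JRj mice 8 weeks old. They grew adherent in medium holding 20 ng/ml of EGF and 20 ng/ml of bFGF, mitogens that hold precursors in cycle and that both groups received. One group of 3 cultures was given human LDL, the lipoprotein that carries cholesterol in blood, and the other group of 3 was given saline, in each case for 48 h. The labels give the LDL amount as 100 but differ on its unit, ug/ml in the treatment protocol and ug/ul in the sample descriptions. The labels call the 3 replicates independent experiments on different passages, and do not say how many mice each culture came from.

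Before S phase, the origin recognition complex, Cdc6 and Cdt1 load the ring of Mcm2 to Mcm7 proteins on DNA, a step called licensing. At the start of S phase Cdc45, the GINS complex and Mcm10 turn the loaded ring into a moving helicase, and polymerases with their clamp, clamp loader and single-strand binding protein copy the strands behind it. Ribonucleotide reductase, thymidylate synthase, thymidine kinase and dUTPase keep the nucleotide pool that this copying consumes. Many of these genes are transcribed late in G1 under E2F transcription factors, and in the adult dentate gyrus their products mark precursors that are in cycle.

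The promoters were examined for letters that E2F factors are known to bind, because E2F control is the feature these genes are best known to share. RefSeq windows of build GRCm38.p6, 250 bases before to 50 after a start, were matched for 34 of the 39 genes, and not for Mcm4, Gins1, Gins2, Rfc2 and Pole. An E2F match was any of TTTGGCGC, TTTCCCGC, TTTGCCGC or TTTCGCGC on either strand. The first 250 bases, up to the start, are shown for 4 genes with a match there (Mcm5, Mcm6, Mcm7 and Pola1) and for the 2 ribonucleotide reductase genes, which have none. Capitals mark the matches, and each run of 12 capitals in Mcm5 and Mcm6 is a pair of overlapping matches on opposite strands. The stretches lie at chr8:75109259-75109508 (plus strand), chr1:128359706-128359955 (minus), chr5:138171884-138172133 (minus, the farther upstream of 2 starts), chrX:93632156-93632405 (minus), chr7:102441445-102441694 (plus) and chr12:24708004-24708253 (plus), each written 5′ to 3′ along its gene.
Mcm5 promoter: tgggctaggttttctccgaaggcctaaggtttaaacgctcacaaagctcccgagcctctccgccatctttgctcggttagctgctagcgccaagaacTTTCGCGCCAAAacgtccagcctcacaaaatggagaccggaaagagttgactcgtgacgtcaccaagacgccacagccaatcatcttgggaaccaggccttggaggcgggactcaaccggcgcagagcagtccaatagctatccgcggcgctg
Mcm6 promoter: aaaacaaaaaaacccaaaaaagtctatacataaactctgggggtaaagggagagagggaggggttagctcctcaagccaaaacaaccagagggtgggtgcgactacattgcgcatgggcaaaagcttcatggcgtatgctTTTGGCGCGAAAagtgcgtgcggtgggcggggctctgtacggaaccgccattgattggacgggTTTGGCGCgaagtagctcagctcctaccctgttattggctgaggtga
Mcm7 promoter: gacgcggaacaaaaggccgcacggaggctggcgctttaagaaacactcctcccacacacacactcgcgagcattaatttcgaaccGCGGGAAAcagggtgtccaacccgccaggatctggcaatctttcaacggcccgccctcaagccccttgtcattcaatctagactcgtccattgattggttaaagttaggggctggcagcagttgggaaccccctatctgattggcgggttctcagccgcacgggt
Pola1 promoter: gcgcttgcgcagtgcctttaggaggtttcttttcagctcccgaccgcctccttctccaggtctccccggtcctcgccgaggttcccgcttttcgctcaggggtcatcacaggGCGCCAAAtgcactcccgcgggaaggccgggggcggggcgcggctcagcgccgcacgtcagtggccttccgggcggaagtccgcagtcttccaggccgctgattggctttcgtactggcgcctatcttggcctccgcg
Rrm1 promoter: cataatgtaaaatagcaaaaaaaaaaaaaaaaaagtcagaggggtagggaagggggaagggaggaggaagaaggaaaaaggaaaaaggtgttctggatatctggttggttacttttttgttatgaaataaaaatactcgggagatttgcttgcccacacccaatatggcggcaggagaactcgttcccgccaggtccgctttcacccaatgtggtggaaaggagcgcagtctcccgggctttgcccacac
Rrm2 promoter: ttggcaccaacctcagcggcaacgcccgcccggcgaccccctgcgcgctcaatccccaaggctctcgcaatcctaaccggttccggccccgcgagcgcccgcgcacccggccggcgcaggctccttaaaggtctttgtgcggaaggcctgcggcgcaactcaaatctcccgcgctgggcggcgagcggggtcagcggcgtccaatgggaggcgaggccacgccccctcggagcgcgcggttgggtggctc

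An E2F match was present in 14 of the 34 genes (41.2%), against 2.60% of the 27025 genes in the promoter table. It was present in 7 of 9 licensing genes, namely Orc1, Cdc6, Cdt1, Mcm3, Mcm5, Mcm6 and Mcm7, and in 5 of 13 replication fork genes, namely Rfc3, Pola1, Pold1, Pole2 and Lig1. Of the 5 regulators, 2 had it (E2f2 and Uhrf1), while 0 of 2 helicase activation genes and 0 of 5 nucleotide supply genes did. The absence of a match says only that these letters are not in this window. The CCAAT letters, searched on both strands, were in 20 of 34 genes (58.8%) against 41.1% of all genes, and TTTGAA, the letters known as CHR, in 4 of 34 (11.8%) against 20.2%. The median log2 fold change, LDL minus saline, was -0.12 over the 14 genes with an E2F match and -0.12 over the 20 without. Negative values were found for 9 of the 14 and 17 of the 20, against 56.3% of all features, and the difference was not tested.

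The comparison asks whether transcripts of the replication machinery differ after 48 h with LDL, in a series whose title concerns neurogenesis, the LDL receptor and cholesterol metabolism. All 39 genes were well above background on all 6 arrays. Levels below are log2 signals above or below each array's 75th percentile, and they are not comparable between genes because probes differ in brightness. By limma with Benjamini-Hochberg adjustment over 24177 features, 0 of 39 genes passed an adjusted p of 0.05 (lowest adjusted p = 0.51), against 0.136% of all features tested. Of the 33 features that passed, 5 were higher and 28 lower, or 8 and 22 with each array scaled to its median. The same count of 0 genes held in all 22 settings with a test, over which the lowest adjusted p of any of these genes was 0.269.

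Although no gene passed, 29 of 39 had a negative log2 fold change, against 56.3% of all features. The median was -0.12, against -0.03 over all features. The LDL arrays all lay below the saline arrays for 14 genes, against 8.79% of features, and all above for 0, against 5.83%. At an unadjusted p below 0.05, 7 genes were lower, against 4.53% of features, and 0 were higher, against 2.97%. Those 7 were Mcm7, Gins1, Pola1, Rrm1, Rrm2, E2f2 and Uhrf1. The 7 became 0 with each array scaled to its median (1095 of 24177 features, either direction) and 12 with trended robust variances (1887). The 14 became 5 with median scaling, against 5.10% of features. In a bulk sample fewer cells in S phase and less RNA per cell cannot be told apart.

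**Figure D1:**
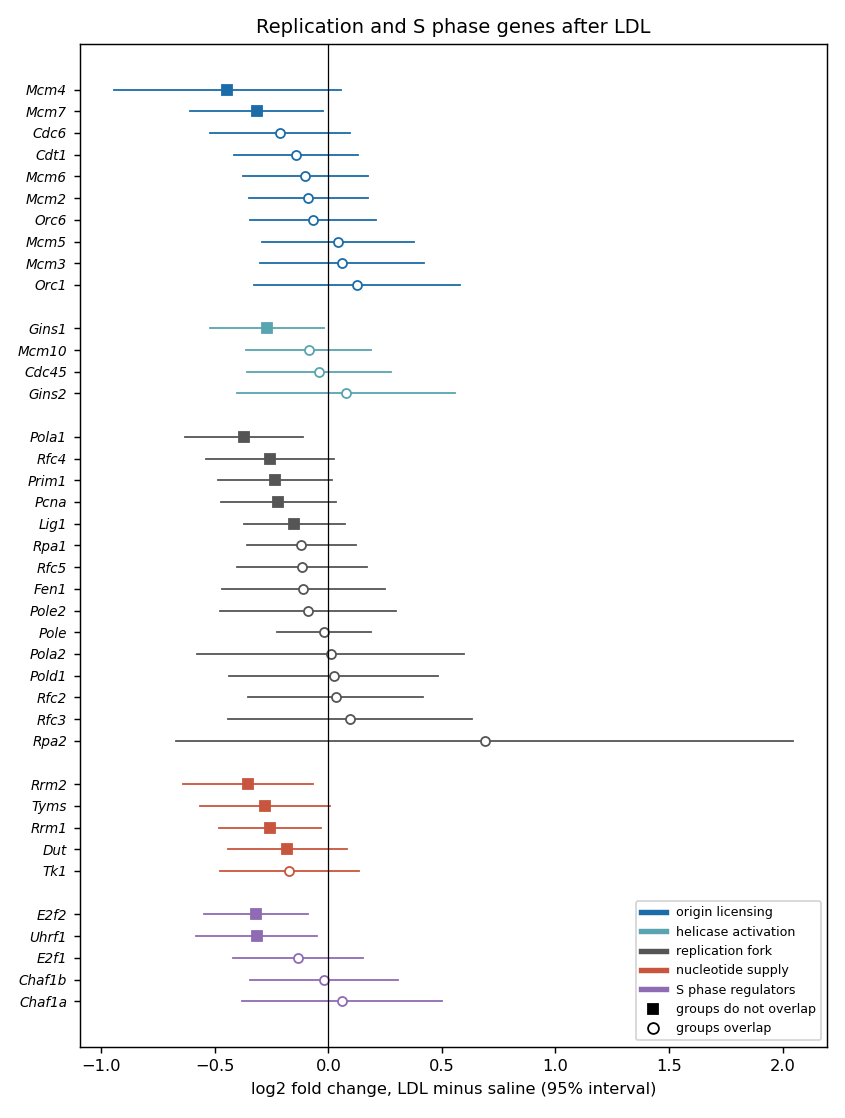
The horizontal axis is the log2 fold change (LDL minus saline, n = 3 each) of each of the 39 genes, with its unadjusted 95% interval from limma, coloured by role. Filled squares are the 14 genes whose LDL arrays all lay below the saline arrays, and the points run from -0.45 for Mcm4 to 0.69 for Rpa2.

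The precision set by 3 arrays a group was modest. The standard errors of the 39 log2 fold changes had a median of 0.12 and ran from 0.09 to 0.57. The lower bound of the 95% interval was above -1 for 39 of 39 genes, and the upper bound below 1 for 38, the exception being Rpa2. The spread was wider with saline, where the median SD over the 39 genes was 0.17, than with LDL, where it was 0.08. Over all features these medians were 0.19 and 0.10.

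Among the licensing genes, 7 of 10 values were negative and the median was -0.09, ranging from -0.45 to 0.13. Mcm7, a subunit of the helicase ring, had 4.19, 4.54 and 4.29 on saline arrays 1 to 3 and 3.93, 4.10 and 4.04 on LDL arrays 1 to 3. The groups did not overlap, and saline replicate 2 was the highest. LDL minus saline was -0.32 on the log2 scale (SE 0.12, 95% interval -0.61 to -0.02, n = 3 each, limma adjusted p = 0.632). Mcm4, another ring subunit, had the lowest value of the 39 genes, at -0.45 (SE 0.21, limma adjusted p = 0.712). Its saline arrays had 5.23, 4.57 and 4.40 and its LDL arrays 4.28, 4.31 and 4.28. Saline replicate 1 stood well above the other arrays, and without it the value was -0.20.

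The other ring subunits had smaller values with groups that overlapped. They were -0.10 for Mcm6, -0.09 for Mcm2, 0.04 for Mcm5 and 0.06 for Mcm3. The loading factors Cdc6 and Cdt1 had -0.21 and -0.14, and the second Cdc6 probe had -0.17. The origin recognition subunits Orc6 and Orc1 had -0.07 and 0.13. The ring subunits thus spanned -0.45 to 0.06 although their proteins act in 1 complex.

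Of the helicase activation genes, Gins1 was the one whose groups did not overlap. This subunit of the GINS complex had 1.11, 1.32 and 1.19 with saline and 0.83, 0.98 and 1.01 with LDL, replicates 1 to 3. The difference on the log2 scale was -0.27 (SE 0.11, 95% interval -0.52 to -0.02, limma adjusted p = 0.635). Gins2, of the same complex, had 0.08, with saline arrays at 0.97, 1.78 and 1.51 that reached beyond both ends of the LDL arrays. Mcm10 had -0.09 and Cdc45 -0.04. The median of these 4 genes was -0.06, and it changed sign to 0.02 without saline replicate 2.

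The replication fork genes had a median of -0.11, with 10 of 15 negative. In 5 of them the LDL arrays all lay below the saline arrays, against 8.79% of features. Pola1, the catalytic subunit of polymerase alpha, had 2.31, 2.34 and 2.25 with saline and 1.77, 1.96 and 2.06 with LDL. Its saline arrays were close together and all LDL arrays lay below them. The difference was -0.37 on the log2 scale (SE 0.11, 95% interval -0.63 to -0.11, limma adjusted p = 0.51). Prim1, the primase that works with Pola1, had 3.57, 3.71 and 3.54 with saline and 3.25, 3.41 and 3.45 after LDL, a log2 fold change of -0.24 (SE 0.11). Pola2, the accessory subunit of the same polymerase, had 0.01, and its saline arrays spread from -2.78 to -1.79.

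Pcna, the sliding clamp, had 6.11, 6.21 and 6.07 with saline and 5.91, 5.78 and 6.04 after LDL, a log2 fold change of -0.22 (SE 0.11). Of the clamp loader subunits, Rfc4 had -0.26 with groups that did not overlap, although its dimmer probe had -0.05 and without saline replicate 2 the value was -0.16. The others had -0.12 for Rfc5, 0.03 for Rfc2 and 0.10 for Rfc3. Lig1, the ligase that joins lagging strand fragments, had -0.15 with groups that did not overlap, and Fen1, which trims them, had -0.11. The leading strand polymerase genes Pole and Pole2 had -0.02 and -0.09, and Pold1 of the lagging strand polymerase had 0.02. The second Pole probe was above background on 2 arrays and was not tested.

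The single-strand binding subunits differed most in their spread. Rpa1 had -0.12 (SE 0.10). Rpa2 had the highest value of the 39 genes, 0.69 (SE 0.57, 95% interval -0.67 to 2.05, limma adjusted p = 0.845). Its saline arrays had 0.62, 1.24 and -1.24 and its LDL arrays 0.82, 0.92 and 0.94. Saline replicate 3 lay far below the other 5 arrays, and without it the value was -0.04.

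The 5 nucleotide supply genes were all negative, with a median of -0.25 and a range from -0.35 to -0.17. For 4 of them the LDL arrays all lay below the saline arrays, against 8.79% of features. All 5 were also negative in each of the 23 settings run. Many of these could not change the values, since each gene has 1 probe, above background on all 6 arrays. Background filters, averaging over probes, blocks and variance models then leave the fold changes unchanged. Rrm2, the regulated subunit of ribonucleotide reductase, had 4.99, 4.87 and 4.61 with saline and 4.42, 4.49 and 4.49 with LDL. Each LDL array lay below the lowest saline array. The difference was -0.35 on the log2 scale (SE 0.12, 95% interval -0.64 to -0.07, limma adjusted p = 0.561). Rrm1, the large subunit, had 3.90, 4.06 and 3.97 with saline and 3.68, 3.74 and 3.75 after LDL, a log2 fold change of -0.25 (SE 0.09, limma adjusted p = 0.606). The groups were again apart.

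Tyms, thymidylate synthase, had 1.40, 1.04 and 1.10 with saline and 0.92, 0.88 and 0.91 after LDL, a log2 fold change of -0.28 (SE 0.12). Without saline replicate 1, its highest array, this was -0.17. Dut, the dUTPase that keeps uracil out of DNA, had 3.08, 3.03 and 3.05 with saline and 2.71, 2.89 and 3.02 after LDL, a log2 fold change of -0.18 (SE 0.11). Without LDL replicate 1, its lowest array, this was -0.10. Tk1, the thymidine kinase of dividing cells, had -0.17 (SE 0.13) and groups that overlapped, and -0.06 without saline replicate 2. None of the 5 passed over all features.

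Of the S phase regulators, E2f2 and Uhrf1 had all LDL arrays below the saline arrays, as did 8.79% of features. E2f2, a transcription factor of the E2F family, had 1.63, 1.81 and 1.72 with saline and 1.38, 1.38 and 1.44 with LDL. That is a log2 difference of -0.32 (SE 0.10, 95% interval -0.55 to -0.09, limma adjusted p = 0.51). Uhrf1, which brings DNA methyltransferase to newly copied DNA, had 4.02, 4.14 and 3.92 with saline and 3.58, 3.73 and 3.83 with LDL. This gives a log2 difference of -0.32 (SE 0.11, limma adjusted p = 0.586), and its dimmer probe had -0.19. E2f1 had -0.13. The chromatin assembly subunits Chaf1a and Chaf1b had 0.06 and -0.02, and the second Chaf1b probe had -0.17.

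Licensing and nucleotide supply genes were then set against each other array by array, each gene centred on its saline mean. The licensing mean was -0.04, 0.08 and -0.04 on saline arrays 1 to 3 and -0.20, -0.08 and -0.07 on LDL arrays 1 to 3. The nucleotide supply mean was 0.04, 0.04 and -0.08 with saline and -0.32, -0.22 and -0.20 with LDL. In both sets every LDL array lay below the lowest saline array, by more in the nucleotide set. In the licensing set this rested on Mcm4, at 0.50 on saline replicate 1 and -0.46, -0.42 and -0.45 on the LDL arrays. Over the other licensing genes the group means overlap. Taken singly, all LDL arrays lay below the saline arrays for 2 of 10 licensing and 4 of 5 nucleotide supply genes, against 8.79% of features. Such counts depend on the scaling, since over the 39 genes the 14 became 5 with median scaling, against 5.10% of features. The difference, licensing minus nucleotide supply, was -0.08, 0.04 and 0.04 on the saline arrays, against 0.12, 0.14 and 0.14 on the LDL arrays. The groups did not overlap, and the contrast, LDL minus saline, was 0.134. It was positive in all 23 settings, although many could not change it. Whole-array shifts cancel in it, and blocks or variance models leave fold changes unchanged. With 1 array left out it lay between 0.093 (saline replicate 1 absent) and 0.156 (saline replicate 2 absent). It is a score over chosen genes and was not tested, and the single-gene ranges of the sets overlap, since Mcm4, Mcm7 and Cdc6 lie within or below the range of the nucleotide supply genes.

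**Figure D2:**
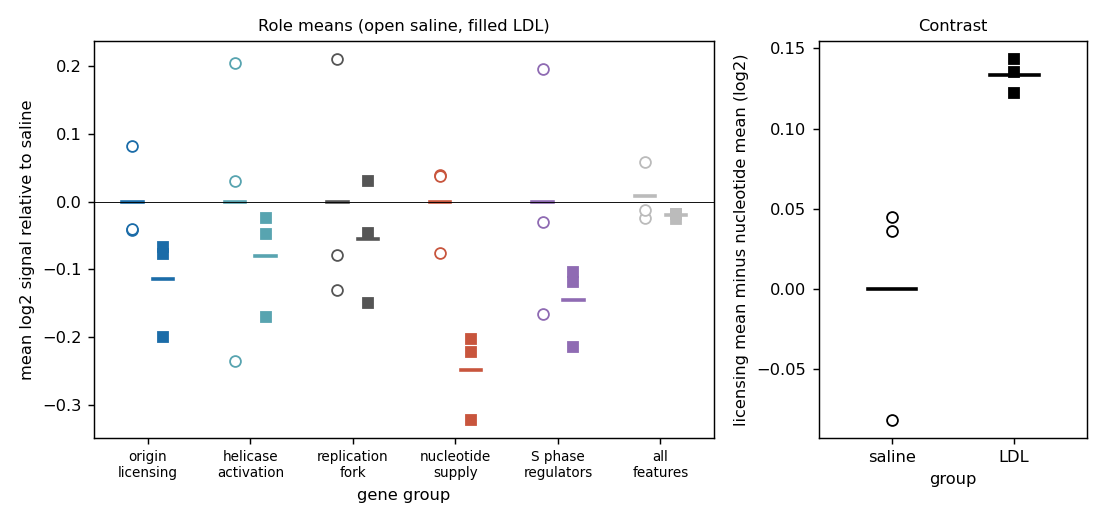
The left panel gives, for each role, the mean log2 signal on each array relative to the saline mean (open circles saline, filled squares LDL, bars group means, n = 3 each), with the median of all features at the right. The nucleotide supply genes have the lowest LDL mean, -0.25, and the right panel shows the difference between licensing and nucleotide supply means on each array, 0.12 to 0.14 with LDL and -0.08 to 0.04 with saline.

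The 39 genes varied together between arrays of the same group. Saline replicate 2 was the highest saline array for 29 genes, and LDL replicate 1 was the lowest LDL array for 32. The mean of the 39 genes relative to saline was -0.10, 0.15 and -0.05 on the saline arrays and -0.19, -0.08 and -0.05 on the LDL arrays. Saline replicates 1 and 3 thus lay within the range of the LDL arrays, and saline replicate 2 lay apart. Saline replicate 3 lay at the upper edge of that range, at -0.0512 against -0.0498 on LDL replicate 3. Only the low Rpa2 value there, -1.45 relative to its saline mean, brought it within the range. Over all features the same saline arrays had medians of 0.06, -0.02 and -0.01. Saline replicate 2 also had the lowest share of probes above background, 55.9% against 59.7% to 66.9% on the other arrays, and the part of this in the result was not tested.

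**Figure D3:**
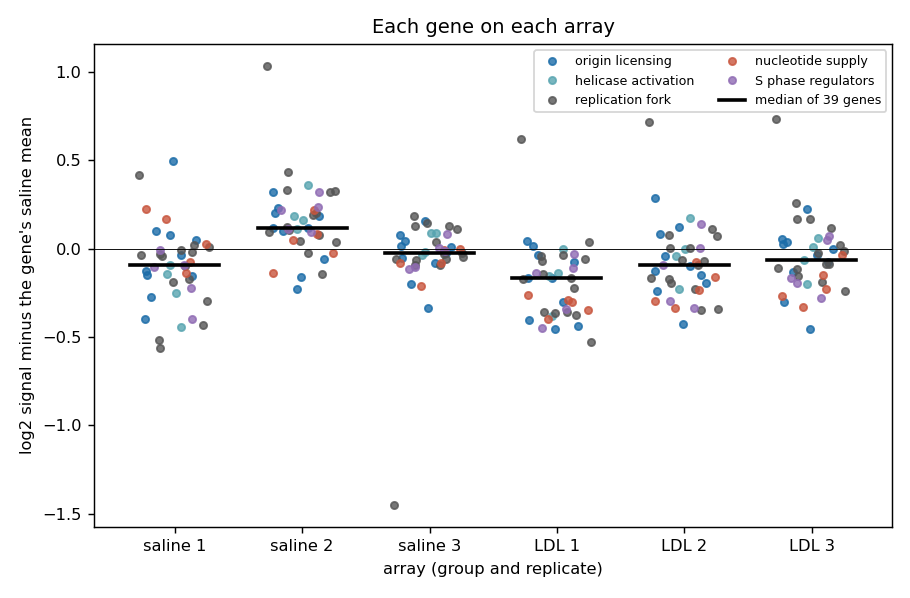
Each point is 1 of the 39 genes on 1 array, as log2 signal minus its own saline mean, coloured by role, and the black bar is the median of the 39 genes. Saline replicate 2 sits highest and LDL replicate 1 lowest, and the isolated low point on saline replicate 3 is Rpa2.

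Leaving out single arrays moved the values by amounts comparable with the values themselves. Without saline replicate 2 the median of the 39 genes was -0.06, with 27 negative, against -0.07 and 61.9% negative over all features. The genes' median was thus not below that of all features there. Without saline replicate 1 it was -0.17, with 37 negative (0.0006 and 49.9% over all features). Without LDL replicate 1 it was -0.09, with 25 negative (-0.02 and 54.5% over all features). The 7 genes at an unadjusted p below 0.05 became 2 without LDL replicate 1, against 1106 of 25297 features in either direction. Without saline replicate 2 they became 3 (3907 of 25864 features), and without LDL replicate 2 they became 1 (1000 of 24248). Both are smaller shares than over all features. They became 3 without LDL replicate 3 (1379 of 24242). The count was 5 without saline replicate 3 (1558 of 24223) and 6 without saline replicate 1 (2205 of 24188). The median of the nucleotide supply genes moved least, between -0.27 and -0.21, and that of the licensing genes ran from -0.16 to -0.04. The fork median ran from -0.18 without saline replicate 1 to -0.01 without LDL replicate 1.

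**Figure D4:**
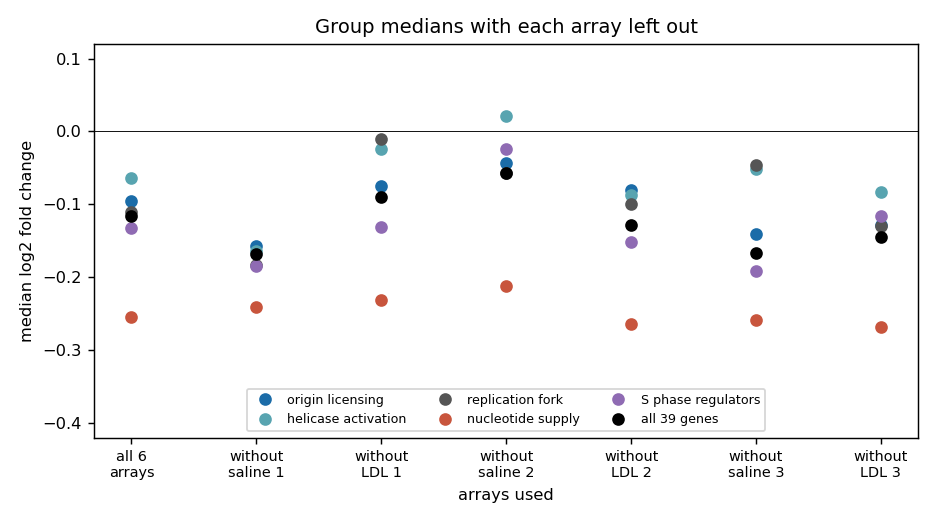
The vertical axis is the median log2 fold change (LDL minus saline) of each role and of all 39 genes, with all 6 arrays and with each array left out. The nucleotide supply genes stay between -0.27 and -0.21, while the helicase activation genes reach 0.02 without saline replicate 2.

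The arrays lay in different rows of 1 slide, which the file headers record. Row 1 held replicates 1 and 2 of each group and row 2 held replicate 3 of each. A difference between the rows thus cannot be told apart from one between replicate 3 and the others. Within row 1 the median of the 39 genes was -0.16 with 30 negative, against -0.03 and 56.0% negative over all features. Within row 2 it was -0.03 with 29 negative, and the values over all features were not computed there. The nucleotide supply median was -0.27 in row 1 and -0.12 in row 2, and the licensing median -0.14 and -0.01. With slide row as a block 0 of the 39 genes passed, and 4 had an unadjusted p below 0.05, against 1581 of 24177 features. Under median scaling 27 of the 39 genes were negative, against 46.8% of all features. There were 29 when arrays were quantile normalized (54.3% of features) and 30 when normexp came before that step (54.1%). In the authors' values there were 30 (51.6%).

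Beyond the 39 genes, 83 further genes of the same processes were tested and 0 passed over all features. Of these 60 were negative (56.3% over all features), with a median of -0.11. At an unadjusted p below 0.05 there were 7 lower, against 4.53% of features, and 2 higher, against 2.97%, the latter near the background. The LDL arrays all lay below the saline arrays for 21, against 8.79% of features, and all above for 3, against 5.83%. In the licensing and firing list 11 of 18 were negative, near the share of all features, and Gmnn, the inhibitor of Cdt1, had -0.39 (SE 0.13), Mtbp -0.25 and Ticrr -0.22, both origin firing factors. The smallest p among the positive genes there belonged to Mcm9 at 0.25, Gins4 at 0.14 and Orc2 at 0.11. In the fork and polymerase list 15 of 20 were negative, led by Tipin at -0.22, Rpa3 at -0.21 and Dscc1 at -0.22. Pold4, a small subunit of the lagging strand polymerase, had 0.32 (SE 0.10) with groups that did not overlap, Pole3 0.10 and Pole4 0.12.

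The nucleotide list beyond the 5 genes above was split in sign, with 12 of 20 negative, near the share of all features, and a median of -0.01. Dck, which salvages deoxycytidine, had -0.30, Ppat, the first enzyme of purine synthesis, -0.19, and Samhd1, which breaks down deoxynucleotides, -0.15. The dimmer probes of Ppat and Samhd1 had 0.02 and 0.07, of the other sign. Tk2, the mitochondrial thymidine kinase, had 0.33 (SE 0.13) with groups that did not overlap. The purine synthesis enzymes Atic and Gart had 0.26 and 0.17. In the list of regulators and chromatin factors 22 of 25 were negative, with a median of -0.15. The smallest p values were those of the E2F repressors E2f7 at -0.40 (SE 0.10) and E2f8 at -0.38 (SE 0.11), and of Skp2 at -0.34, which targets CDK inhibitors for degradation. The dimmer E2f7 probe had -0.10. The positive genes were E2f6 at 0.05, Slbp at 0.01 and Asf1a below 0.01. Of the genes named here, Gmnn, Mtbp, Ticrr, Tipin, Rpa3, Dscc1, Samhd1, E2f7, E2f8 and Skp2 had all LDL arrays below the saline arrays. Those with all LDL arrays above were Pold4, Tk2 and E2f6.

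For comparison, the 22 mitosis genes tested were all negative (56.3% over all features), with a median of -0.16 and 0 that passed. In 6 of them the LDL arrays all lay below the saline arrays, against 8.79% of features. Cdc20 had -0.33, Ccnb1 -0.37 and Birc5 -0.22. Dimmer probes disagreed in size for Ccnb1, at -0.04 and -0.07, and in sign for Birc5, at 0.05 and -0.22. Their mean relative to saline was -0.17, 0.10 and 0.07 on the saline arrays and -0.29, -0.14 and -0.11 on the LDL arrays, so saline replicate 1 lay within the LDL range. Of 11 G1 genes tested 7 were negative. The CDK inhibitor genes Cdkn2c and Cdkn1c had -0.53 and -0.34 and Cdk4 -0.29, while Ccnd1, the cyclin that starts G1 progression, had 0.52, Cdkn2b 0.44 and Cdkn1a 0.28. None of these 11 passed, and a difference between the replication, mitosis and G1 genes was not tested.

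**Figure D5:**
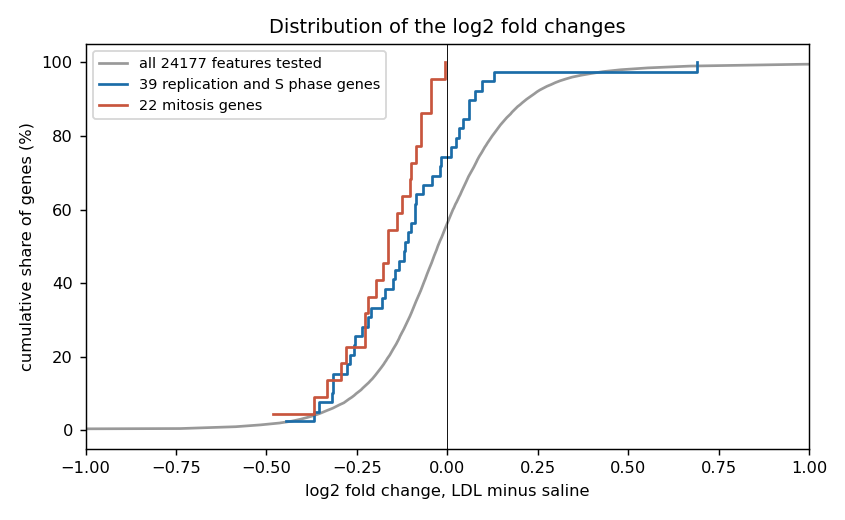
The curves give the cumulative share of genes (vertical axis, %) at or below a log2 fold change (horizontal axis, LDL minus saline, drawn from -1 to 1) for all 24177 features, the 39 replication and S phase genes and the 22 mitosis genes. The medians are -0.03, -0.12 and -0.16.

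Of 16 markers of neural precursors, the labelled cell type, 15 were well above background in both groups, Nes and Sox2 among them. So were 8 of 8 astrocyte, 8 of 8 oligodendrocyte and 7 of 10 neuron markers, the 3 exceptions being Dcx, Neurod1 and Stmn2. Of 8 microglia and 8 vascular markers, 5 and 3 were above background. Presence above background thus does not single out the labelled type. Gfap, the glial filament gene of astrocytes and of stem-like precursors, was the one marker that passed, at 1.35 (SE 0.13, limma adjusted p = 0.0213), although its other tested probe had 0.15. That other probe was the brighter with saline, at -2.99 against -3.45. The chosen probe was the brighter over all arrays only through the LDL arrays, at -2.10 against -2.84. Mki67, a marker of cells in cycle, had -0.10 (SE 0.10). The part of cell type makeup in the values of the replication genes was not tested.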

How the data were processed

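RNA of 3 saline and 3 LDL cultures was labelled with cyanine-3 and hybridised to 1-colour arrays on 1 slide. Each scanner file, as deposited, gives a linear intensity per spot, from which Agilent Feature Extraction had subtracted the background per the file headers. The tools in the submitters' processing notes are limma 3.34.9, R 3.4.4 and Agilent Feature Extraction 10.7.3.1. A second table of log2 values was deposited, with a normalization not given in the sources used here; it follows the scanner values (r between 0.987 and 0.993 across spots), its column medians lay between 6.74 and 6.75, and it served as an alternative.

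Values were log2 of the processed intensity minus the 75th percentile of each array over non-control spots. Control spots and flagged spots were left out, and spots of a probe were averaged. A probe was tested if at least 50% of its spots were well above background on all 3 arrays of a group, and if it had a value on every array, which left out 73 of 32993 probes. The files read here had no gene name column, so each probe's RefSeq accession, without its version, was looked up in a gene table of GRCm38.p6 (28331 of 55681 probes). The brightest probe stood for a gene. Genes with a near-identical copy may share signal, which was not examined because probe sequences were not used here.

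Groups were compared with limma 3.58.1 in R 4.3.3 (lmFit, eBayes, two-sided moderated test, no covariates) over 24177 features with Benjamini-Hochberg adjustment at 0.05. The fit was also run on simulated data with independent noise and planted changes larger than any value of the 39 genes. That run does not show how well changes of their size would be found. Arrays give no read depth, and their number limits the precision. The genes, lists and contrast were chosen with earlier results of these data known. The text names all 39 genes, and of the further lists up to 3 genes with the smallest p in each direction. The set of spots behind the percentile and the handling of probes lacking a value on an array were settled after counts of calls had been seen, partly to follow an earlier processing of the same arrays; the 4 other versions tried gave 4 to 6 features higher and 26 to 28 lower, and 0 of the 39 genes in each. Normexp (offset 50) used the median spot signal because no mean spot signal column was in the files read here. Figures were drawn with matplotlib 3.10.9.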

Additional observations from a re-analysis of the deposited data

How the results depend on the processing

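Over 22 alternatives 0 of the 39 genes passed in limma wherever a test was run, and the median of the 39 genes stayed negative and the licensing minus nucleotide contrast positive. Without saline replicate 2 that median, -0.06, was not below that of all features, -0.07. Whole-array shifts cancel in the contrast, and blocks or variance models leave both the median and the contrast unchanged. The contrast with 1 array left out ran from 0.093 to 0.156 and the median of the 39 genes from -0.17 to -0.06.

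The counts over the whole array, 5 higher and 28 lower, were less stable. The 5 became 16 with trended robust variances, 9 with normexp and quantile normalization, 8 in the authors' values and 8 when arrays were scaled to the median. The counts were 0 and 0 without the background filter (1775 features with an unadjusted p below 0.05), 0 and 0 in slide row 1 (866), and 0 and 15 with slide row as a block. With 1 array absent the higher calls numbered 0 to 7 and the lower calls 0 to 25. It gave 0 and 0 without LDL replicate 2, saline replicate 3 or LDL replicate 3, 0 and 3 without saline replicate 2, 7 and 25 when saline replicate 1 was left out, and 2 and 15 for LDL replicate 1. Fits on fewer arrays have fewer degrees of freedom, and otherwise the cause was not tested.

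Using the replicate number as a block (replicate block), the calls were 3 higher and 11 lower, none of them among the 39 genes. Over all features, arrays sharing a number deviated from their group means with correlations of 0.24, -0.08 and 0.21 for replicates 1 to 3. Arrays of different numbers had correlations from -0.27 to 0.08. The main fit did not assume pairing by number, and these values do not settle whether it holds. The 4 versions of the percentile and of incomplete probes that were run while the processing was settled, an alternative chosen after seeing the data, moved no gene by more than 0.00793.

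Slide row 2, with 1 array of each group (replicate 3), gave a licensing median of -0.0096 and a nucleotide supply median of -0.12. Signs turned there for Cdt1 (0.0491), Chaf1a (-0.00916), Chaf1b (0.0639), Gins2 (-0.028), Mcm2 (0.00956), Mcm5 (-0.00727), Orc1 (-0.0213), Orc6 (0.068), Pold1 (-0.0885) and Pole2 (0.0208). In slide row 1 signs turned for Pola2 (-0.00484), Pole (0.00239) and Rpa2 (-0.0585). Chaf1a also turned with normexp and quantile normalization (-0.0266) and in the authors' table (-0.012). With median scaling Chaf1b (0.0205) and Pole (0.0199) turned. The sign of 15 genes turned with some array left out, over these ranges: Cdc45 -0.167 to 0.0387, Chaf1a -0.14 to 0.219, Chaf1b -0.129 to 0.1000, Fen1 -0.223 to 0.0228, Gins2 -0.146 to 0.255, Mcm10 -0.159 to 0.00446, Mcm3 -0.0548 to 0.173, Mcm5 -0.0926 to 0.158, Orc1 -0.0703 to 0.289, Pola2 -0.27 to 0.225, Pold1 -0.192 to 0.184, Pole2 -0.217 to 0.0505, Rfc2 -0.116 to 0.194, Rfc3 -0.162 to 0.263 and Rpa2 -0.0358 to 1.21.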
